A study of Homo sapiens with 6 samples.

Results

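The genes described here make cholesterol and fatty acids or control their synthesis. They were chosen by name, with earlier results of these data known. The list of 34 genes covers the mevalonate pathway, the steps from squalene to cholesterol, the SREBP regulators with a sterol transporter, and the main lipogenic enzymes. The deposited table lists 29153 genes and holds a row for 33 of the 34, and all 33 passed the filter on low values that left 13452 genes for testing. INSIG1, a sterol-sensing retention protein of the endoplasmic reticulum, was not analysed here. The transcriptome was sequenced from HepG2 cells, an established line from a human liver cancer, after 72 h of treatment with lentivirus. Of the 6 libraries, 3 came from cells with a control hairpin (shNC) and 3 from cells with a hairpin against the long noncoding RNA LINC01977 (shLINC01977, titled sh3 by the submitters). Both groups therefore carried a lentiviral hairpin and, by the study's methods, were selected with puromycin. The knockdown arm rests on 1 hairpin in 1 cell line. The labels do not say whether the 3 libraries of a group came from separate cultures, so the p-values measure the spread between these libraries, which may be technical.

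Cholesterol is built from acetyl-CoA through mevalonate, isoprenoid diphosphates, squalene and lanosterol. Liver cells make it for their own membranes, for bile acids and for lipoproteins. When sterols run low, SCAP escorts the SREBP transcription factors, encoded by SREBF1 and SREBF2, out of the endoplasmic reticulum to be cleaved, and the released fragments switch on genes of both pathways. INSIG proteins hold SCAP back when sterols are plentiful. SREBF2 is best known for the cholesterol genes and SREBF1 for the fatty acid genes.

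The 6 libraries held between 49929024 and 60441515 counts, and each of the 33 genes had at least 678 counts in every library. LINC01977 itself had 4, 0 and 16 counts in the shNC libraries and 0, 0 and 4 in the shLINC01977 libraries, so its reduction was not detectable at this depth (log2 fold change -2.12, adjusted p = 0.580 from edgeR in a fit of all genes), and the groups rest on the labels. The liver identity of the cells was evident, since the summed FPKM of 10 hepatocyte and HepG2 markers (ALB, AFP, APOA1, APOA2, APOH, FGB, FGA, HNF4A, TF and RBP4) was between 5546 and 5915 in shNC and between 4413 and 4596 in shLINC01977. Of these 10, 8 were called lower in shLINC01977, APOA2 was called higher and FGA was not called. Of all tested genes, 8.07% were called lower and 7.05% higher. The markers of other cell types were at or near 0 for PTPRC, COL3A1, THY1 and VIM. The mesenchymal sum was between 3.04 and 4.21 FPKM in shNC and between 5.48 and 7.67 in shLINC01977, with PDGFRB called higher. COL1A1 was above the shNC range in each shLINC01977 library but was not called (log2 fold change 0.73, adjusted p = 0.0504). The immune sum was between 625 and 632 FPKM in shNC and between 542 and 557 in shLINC01977 and was almost wholly LYZ, which was called lower. CD68 was above the shNC range in each shLINC01977 library but not called (log2 fold change 0.44, adjusted p = 0.063). The endothelial sum was at most 0.441 FPKM in each library. The part of these marker changes in the results below was not tested.

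Expression of a gene is given in CPM, which is a count put on a common library size from the tested genes and the TMM factor. Levels of different genes are compared in FPKM, which takes length into account. A gene is named as called when its p from edgeR's quasi-likelihood test, adjusted over all 13452 tested genes by the Benjamini-Hochberg method, is under 0.05. Differences are log2 fold changes of shLINC01977 over shNC, each with its standard error (SE).

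Of the 20 sterol enzyme genes, from ACAT2 to DHCR7 along the pathway, 7 were called lower in shLINC01977 cells and none higher. Of the 8 fatty acid genes, 1 was called lower, 1 higher and 6 were not called. The contrast between these groups was not tested. Of the 33 genes, 9 were called lower, namely ACAT2, MVD, IDI1, SQLE, LSS, CYP51A1, HSD17B7, SREBF2 and SCD. Only ELOVL6 was called higher. The 9 are 27.3% of the 33, against 8.07% of all tested genes called lower. The 33 genes each averaged at least 3.18 FPKM in shNC, while the tested genes reach down to a mean of 0.5. With the filter at a mean FPKM of 1 the count was also 9, against 9.08% of all tested genes. The part of expression level in these shares was not tested. The count was 4, 5 and 3 without shNC replicates 1, 2 or 3, where 5.34%, 5.26% and 5.42% of all tested genes were called lower. It was 7, 5 and 3 without shLINC01977 replicates 1, 2 or 3, where the share of all tested genes was 5.49%, 4.66% and 5.03%. With limma on FPKM it was 5, against 5.42% and 5.46% of all tested genes at pseudocounts of 0.1 and 1, and with DESeq2 it was 12, against 11.0%. The 1 called higher is 3.03% of the 33, against 7.05% of all tested genes called higher. The median log2 fold change was -0.19 over the 33 genes and -0.0010 over all tested genes, and 22 of the 33 had a negative value. In 16 of the 33 genes (48.5%) each shLINC01977 library lay below each shNC library, against 18.3% of all tested genes. In 2 genes (6.06%), ELOVL6 and LBR, each shLINC01977 library lay above each shNC library, against 18.8% of all tested genes, and the groups overlapped in the other 15. The changes were small, between -0.62 and 0.63 on the log2 scale. None of the 33 passed a 2-fold change with an unadjusted P of at most 0.05, which 2.6% of all tested genes passed in edgeR, and the count was also 0 with DESeq2 and with limma, although 15 of the 33 (45.5%) had an unadjusted p under 0.05 in edgeR, against 30.5% of all tested genes.

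**Figure D1:**
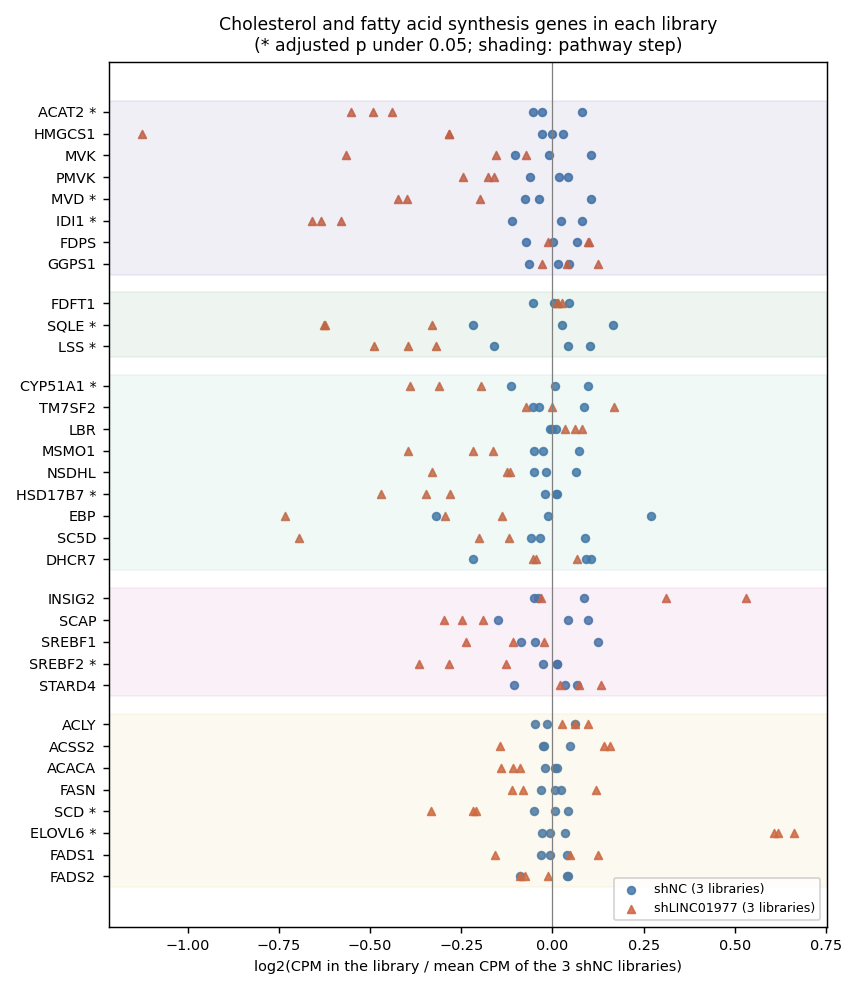
Each of the 33 genes in each library, as the log2 ratio of the library's CPM to the mean CPM of the 3 shNC libraries (circles, shNC; triangles, shLINC01977; asterisk, adjusted p under 0.05; shading, pathway step). The shLINC01977 libraries lie left of the shNC libraries in 16 genes and right of them in 2.

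The 20 sterol enzyme genes summed to 1820, 1799 and 1921 CPM in the shNC libraries and to 1509, 1592 and 1587 CPM in the shLINC01977 libraries. The 3 shLINC01977 sums lay below the 3 shNC sums. Genes with many counts weigh most in these sums, which do not describe each gene. FDPS, GGPS1, FDFT1, TM7SF2 and LBR had log2 fold changes slightly above 0.

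Promoter sequence was examined because these genes share regulators and several of them were lower together. The RefSeq table (GRCh38.p14), which gives 250 bases before to 50 bases after a gene's start, held an entry for 30 of the 34 genes and none for SQLE, FDFT1, ACAT2 and FASN. Both strands were searched for the SREBP site TCACNCCAC, the CCAAT box CCAAT, which is bound by NF-Y, and the GC box GGGCGG, which is bound by Sp1-type factors. No motif contains another. The SREBP site in these letters was present in 1 of the 30 promoters (3.33%), that of SREBF2, against 1.15% of all 27305 promoters in the table. The CCAAT box was present in 18 of the 30 (60.0%), against 35.7% of all promoters. The GC box was present in 26 of the 30 (86.7%), against 44.6% of all promoters and 63.6% of the promoters of genes in the deposited table. Among the 7 called-lower genes with an entry, 5 held a CCAAT box and 7 a GC box, and among the 21 genes that were not called, 12 held a CCAAT box and 17 a GC box. ELOVL6 held a GC box only. INSIG1, whose expression was not analysed, is also among the 30 and held a CCAAT box and GC boxes.

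Stretches upstream of the start of 6 genes are printed. Of these, 5 are the called-lower genes whose promoter holds a CCAAT box, and ELOVL6 is the gene called higher. IDI1 and CYP51A1, called lower without a CCAAT box, are not printed, so the printed set is no comparison of promoters by direction. Each printed stretch runs 5′ to 3′ on the gene's strand and stops before any GENCODE 29 exon. Capitals mark the SREBP site, the CCAAT box (ATTGG on the opposite strand) and the GC box (CCGCCC on the opposite strand). The stretches are only parts of the searched promoters, and motifs outside them are not shown. All GC boxes of SREBF2 (at -23, -10 and -5 relative to the start) and of SCD (at -33 and -11) lie outside, as do some of LSS.
SREBF2 promoter, chr22:41832945-41833074, plus strand: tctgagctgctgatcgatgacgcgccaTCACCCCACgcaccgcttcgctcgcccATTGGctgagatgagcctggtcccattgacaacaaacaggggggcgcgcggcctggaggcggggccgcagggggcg
MVD promoter, chr16:88663163-88663301, minus strand: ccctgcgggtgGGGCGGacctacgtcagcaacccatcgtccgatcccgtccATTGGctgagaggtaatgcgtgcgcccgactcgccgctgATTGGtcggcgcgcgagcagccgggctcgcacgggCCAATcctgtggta
LSS promoter, chr21:46228826-46228934, minus strand: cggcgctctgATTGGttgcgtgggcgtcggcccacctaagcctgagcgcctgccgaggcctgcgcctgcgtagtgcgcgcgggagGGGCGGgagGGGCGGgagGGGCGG
HSD17B7 promoter, chr1:162790572-162790701, plus strand: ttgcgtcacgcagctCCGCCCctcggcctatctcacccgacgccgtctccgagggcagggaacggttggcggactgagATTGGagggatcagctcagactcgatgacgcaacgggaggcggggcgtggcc
SCD promoter, chr10:100346993-100347121, plus strand: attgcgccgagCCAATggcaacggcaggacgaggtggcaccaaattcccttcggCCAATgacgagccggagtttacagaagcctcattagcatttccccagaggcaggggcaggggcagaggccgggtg
ELOVL6 promoter, chr4:110198690-110198775, minus strand: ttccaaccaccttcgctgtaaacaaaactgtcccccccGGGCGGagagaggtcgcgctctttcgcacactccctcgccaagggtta
The SREBP site of SREBF2 begins at base -133 relative to the start, and an inverted CCAAT box follows it at -106. The MVD stretch holds 3 CCAAT boxes and the SCD stretch 2. The promoter of ELOVL6 holds none, nor do those of IDI1 and CYP51A1, which were called lower. The ELOVL6 stretch lies upstream of the RefSeq start but inside the gene's span in the deposited table, outside its exons. A match describes letters only and is not evidence of binding, and a missing match says nothing about a factor.

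In the mevalonate pathway, 3 of the 8 genes were called lower and none higher, against 8.07% and 7.05% of all tested genes. The median log2 fold change was -0.29. ACAT2, the cytosolic thiolase that joins acetyl-CoA units into acetoacetyl-CoA at the entry of the pathway (not the sterol acyltransferase that once shared the symbol), had 221, 224 and 242 CPM in shNC and 156, 169 and 163 CPM in shLINC01977. The groups were well apart, and the log2 fold change was -0.49 (SE 0.055, adjusted p = 0.0027), a 1.41-fold lower level. ACAT2 (ENSG00000120437, GRCh38 chromosome 6, 159760328 to 159779055, plus strand) overlaps the end of TCP1, a chaperonin gene on the opposite strand, over 558 bases. Since the authors' use of strand in counting is not stated, reads of the overlap cannot be told apart. TCP1 had 299, 324 and 296 CPM in shNC and 254, 316 and 249 CPM in shLINC01977, so its groups overlapped, and it was not called (log2 fold change -0.17, adjusted p = 0.30). SOD2, which overlaps ACAT2 at its other end, was not called either (log2 fold change 0.015, adjusted p = 0.96).

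IDI1, the isomerase that turns isopentenyl diphosphate into dimethylallyl diphosphate, was the gene with the lowest log2 fold change of the 33. It had 98.3, 89.7 and 102 CPM in shNC and 61.3, 62.3 and 64.8 CPM in shLINC01977. The shLINC01977 libraries were nearly level, and the log2 fold change was -0.62 (SE 0.065, adjusted p = 0.0022), a 1.54-fold lower level. IDI1 (ENSG00000067064) lies on the minus strand of chromosome 10, 1039908 to 1049170. ACAT2 and IDI1 remained called under each of the 15 alternative settings tried, every left-out library included.

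MVD, the decarboxylase that makes isopentenyl diphosphate, had 69.9, 61.6 and 63.3 CPM in shNC and 56.5, 49.2 and 48.4 CPM in shLINC01977. The groups did not overlap, and the log2 fold change was -0.34 (SE 0.084, adjusted p = 0.041). This call rests on all but 1 of the libraries. Without shNC replicates 1, 2 or 3 the adjusted p was 0.11, 0.067 and 0.086, and without shLINC01977 replicates 2 or 3 it was 0.12 in each case, with log2 fold changes between -0.41 and -0.28 when 1 library was left out.

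HMGCS1, the synthase that makes HMG-CoA, had 159, 155 and 153 CPM in shNC and 71.3, 128 and 128 CPM in shLINC01977. The first shLINC01977 library stood apart from the other two, with a coefficient of variation of 30.0% in that group against 1.97% in shNC. All 3 shLINC01977 libraries were below the shNC range, but the log2 fold change of -0.51 had an SE of 0.21 and HMGCS1 was not called (adjusted p = 0.16). Without shLINC01977 replicate 1 the log2 fold change was -0.28 and the gene was called (adjusted p = 0.027), and DESeq2 called it with all libraries (adjusted p = 0.043).

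The other genes of this pathway were not called. PMVK, which phosphorylates mevalonate phosphate, had a log2 fold change of -0.19 (adjusted p = 0.17) with groups that did not overlap. MVK, mevalonate kinase, had -0.25 (adjusted p = 0.27), and its second shLINC01977 library was low, at 21.4 CPM against 28.5 and 30.2 CPM in the others. The 2 prenyl diphosphate synthases at the end of the pathway were close to no difference. FDPS, which makes farnesyl diphosphate, had a log2 fold change of 0.062 (95% interval -0.072 to 0.20), and GGPS1, which makes geranylgeranyl diphosphate, had 0.047 (95% interval -0.12 to 0.21).

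**Figure D2:**
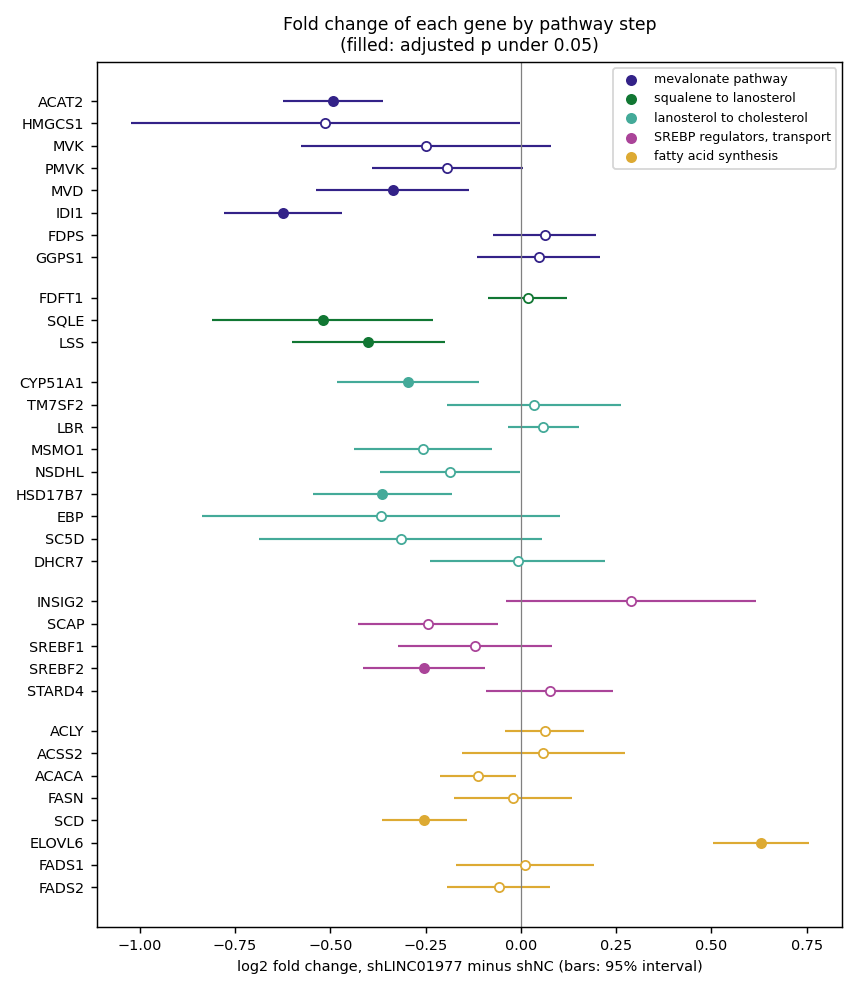
Log2 fold change of shLINC01977 over shNC for each of the 33 genes, with its 95% interval from edgeR, coloured by pathway step (filled, adjusted p under 0.05; open, not called). The filled points are 9 below 0 and ELOVL6 at 0.63, and the wide intervals of HMGCS1 and EBP reach from -1.02 and -0.84.

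Of the 3 genes that take farnesyl diphosphate to lanosterol, 2 were called lower, against 8.07% of all tested genes. SQLE, squalene epoxidase, an oxygen-dependent control step of the pathway, had 142, 168 and 185 CPM in shNC and 107, 131 and 107 CPM in shLINC01977. The highest shLINC01977 library was below the lowest shNC library, although both groups were spread, with coefficients of variation of 13.1% and 12.1%. The log2 fold change was -0.52 (SE 0.12, adjusted p = 0.034). Without shNC replicates 2 or 3 the adjusted p was 0.089 in each case, and without shLINC01977 replicates 1 or 3 it was 0.10 in each case. LSS, the cyclase that closes the sterol rings to form lanosterol (ENSG00000160285, chromosome 21, 46188141 to 46228824, minus strand), had 120.1, 104 and 125 CPM in shNC and 93.4, 88.5 and 82.9 CPM in shLINC01977. Its groups did not overlap, and the log2 fold change was -0.40 (SE 0.084, adjusted p = 0.023). The adjusted p was 0.073 and 0.066 without shNC replicates 1 or 3, and 0.072 and 0.076 without shLINC01977 replicates 2 or 3. FDFT1, squalene synthase, which stands between these genes and FDPS, had 177, 172 and 165 CPM in shNC and 173, 174 and 173 CPM in shLINC01977. Its groups overlapped, and its log2 fold change of 0.018 had a 95% interval from -0.086 to 0.12.

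Between lanosterol and cholesterol, 2 of the 9 genes were called lower, against 8.07% of all tested genes. Of the 9, 7 had a negative log2 fold change, against 6751 of the 13452 tested genes, and the median was -0.26. CYP51A1, the demethylase that acts first on lanosterol, had 91.0, 83.8 and 97.0 CPM in shNC and 79.1, 69.2 and 73.1 CPM in shLINC01977. The groups were close but did not overlap, and the log2 fold change was -0.30 (SE 0.078, adjusted p = 0.048). The call of CYP51A1 was kept without shNC replicate 2 only. Leaving out shNC replicates 1 or 3 gave adjusted p values of 0.12 in each case, and leaving out shLINC01977 replicates 1, 2 or 3 gave 0.058, 0.13 and 0.13. HSD17B7, a sterol ketoreductase (ENSG00000132196, chromosome 1, 162790702 to 162812817, plus strand), had 26.4, 26.9 and 27.0 CPM in shNC and 19.3, 22.0 and 21.1 CPM in shLINC01977. The shNC libraries were nearly level, and the log2 fold change was -0.36 (SE 0.076, adjusted p = 0.023). With 1 library left out the adjusted p was between 0.042 and 0.067, and the call was kept only without shLINC01977 replicate 2. A pseudogene of similar sequence, HSD17B7P2, had 21.0% of the counts of HSD17B7 and a log2 fold change of -0.015 (adjusted p = 0.96), and how reads shared by the pair were divided is not stated.

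MSMO1, the sterol methyl oxidase, had a log2 fold change of -0.26 with groups that did not overlap, and it missed the threshold in edgeR (adjusted p = 0.069) while DESeq2 called it (adjusted p = 0.026). NSDHL, which works with MSMO1 in removing methyl groups, had -0.19 (adjusted p = 0.16). EBP, the sterol isomerase, had -0.37 with overlapping groups, from 30.2 to 45.4 CPM in shNC and from 22.6 to 34.2 CPM in shLINC01977 (adjusted p = 0.26). With 1 library left out, its log2 fold change was between -0.50 and -0.21. SC5D, the sterol desaturase, had -0.32 (adjusted p = 0.22), with its lowest shLINC01977 library at 13.8 CPM. The 3 remaining genes of these steps, DHCR7, TM7SF2 and LBR, had small differences. DHCR7, which makes cholesterol in the last step of one branch, had a log2 fold change of -0.0090 (95% interval -0.24 to 0.22), and TM7SF2 had 0.034. LBR, which has sterol reductase activity and also anchors chromatin at the nuclear envelope, was above the shNC range in each shLINC01977 library, by a log2 fold change of 0.059 that was not called (adjusted p = 0.36).

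Among the SREBP regulators, SREBF2 was called lower and SREBF1 was not called. SREBF2 had 184, 184 and 179 CPM in shNC and 167, 149.7 and 141 CPM in shLINC01977. The groups did not overlap, with more spread in shLINC01977, and the log2 fold change was -0.26 (SE 0.067, adjusted p = 0.049). This is the call closest to the threshold. It was kept without shLINC01977 replicate 1 (adjusted p = 0.022), and lost without shNC replicates 1, 2 or 3 (0.12, 0.12 and 0.098) or shLINC01977 replicates 2 or 3 (0.13 and 0.11). SREBF2 (ENSG00000198911) lies at 41833079 to 41907308 on the plus strand of chromosome 22, and an antisense gene at its start had 1.88% of its counts. SREBF1 had 61.9, 54.9 and 53.5 CPM in shNC and 55.9, 48.2 and 52.6 CPM in shLINC01977. Its groups overlapped, and the log2 fold change was -0.12 (SE 0.084, adjusted p = 0.38, 95% interval -0.32 to 0.082). With 1 library left out it was between -0.17 and -0.053. Whether SREBF1 and SREBF2 differ in their change was not tested.

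SCAP, the escort of both SREBPs, had a log2 fold change of -0.24 with groups that did not overlap and missed the threshold in edgeR (adjusted p = 0.084). DESeq2 called it (adjusted p = 0.043), as did edgeR without shNC replicate 2 (log2 fold change -0.31, adjusted p = 0.038). INSIG2, the remaining INSIG gene in the table, had 66.0, 72.5 and 66.5 CPM in shNC and 66.9, 98.7 and 84.7 CPM in shLINC01977. In 2 of the 3 shLINC01977 libraries INSIG2 was above the shNC range and the first was within it, for a log2 fold change of 0.29 (SE 0.14, adjusted p = 0.21). Without shLINC01977 replicate 2 the log2 fold change was 0.15 (adjusted p = 0.46). Without shLINC01977 replicate 1 it was 0.43 and INSIG2 was called higher (adjusted p = 0.042). That library is also the one with the low HMGCS1 level. STARD4, a carrier of cholesterol between membranes, had a log2 fold change of 0.075 (adjusted p = 0.51). With 1 library left out, that value was between 0.025 and 0.11.

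The 8 fatty acid genes had a median log2 fold change of -0.0054. ELOVL6, the elongase that lengthens saturated and monounsaturated chains of palmitate length, had 35.2, 34.7 and 36.2 CPM in shNC and 53.9, 54.3 and 56.0 CPM in shLINC01977. The libraries of each group were nearly level and the groups far apart, with a log2 fold change of 0.63 (SE 0.052, adjusted p = 0.0013), a 1.55-fold higher level. ELOVL6 (ENSG00000170522, chromosome 4, 110045846 to 110199199, minus strand) was called under each of the 15 alternative settings. SCD, the desaturase that makes oleate from stearate, moved the other way, with 1952, 2000.1 and 1878 CPM in shNC and 1670.0, 1679.8 and 1542 CPM in shLINC01977. The lowest shNC library was above the highest shLINC01977 library, and the log2 fold change was -0.25 (SE 0.047, adjusted p = 0.015), a 1.19-fold lower level. The call of SCD (ENSG00000099194, chromosome 10, 100347124 to 100364834, plus strand) was lost only without shNC replicate 2, at an adjusted p of 0.052 and a log2 fold change of -0.23.

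FASN, fatty acid synthase, had 725, 698 and 716 CPM in shNC and 774, 659.8 and 674 CPM in shLINC01977. In 1 shLINC01977 library FASN was above the shNC range and in the others below it, and the log2 fold change was -0.021 (SE 0.065, adjusted p = 0.86, 95% interval -0.18 to 0.13). ACACA, the acetyl-CoA carboxylase that commits carbon to fatty acids, had a log2 fold change of -0.11 with groups that did not overlap (adjusted p = 0.12). ACLY and ACSS2, which supply acetyl-CoA from citrate and from acetate, had 0.062 and 0.058. The desaturases FADS1 and FADS2, which act on polyunsaturated fatty acids, had 0.010 (95% interval -0.17 to 0.19) and -0.058 (95% interval -0.19 to 0.077). FADS1 and FADS2 overlap each other on opposite strands, and FADS2 also overlaps FEN1, so their counts are uncertain. RAI1, MMAB, ARID4B and GGT7, on the opposite strand, overlap SREBF1, MVK, GGPS1 and ACSS2. They had 71.28%, 67.93%, 73.15% and 37.23% of the counts of those genes, in that order.

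**Figure D3:**
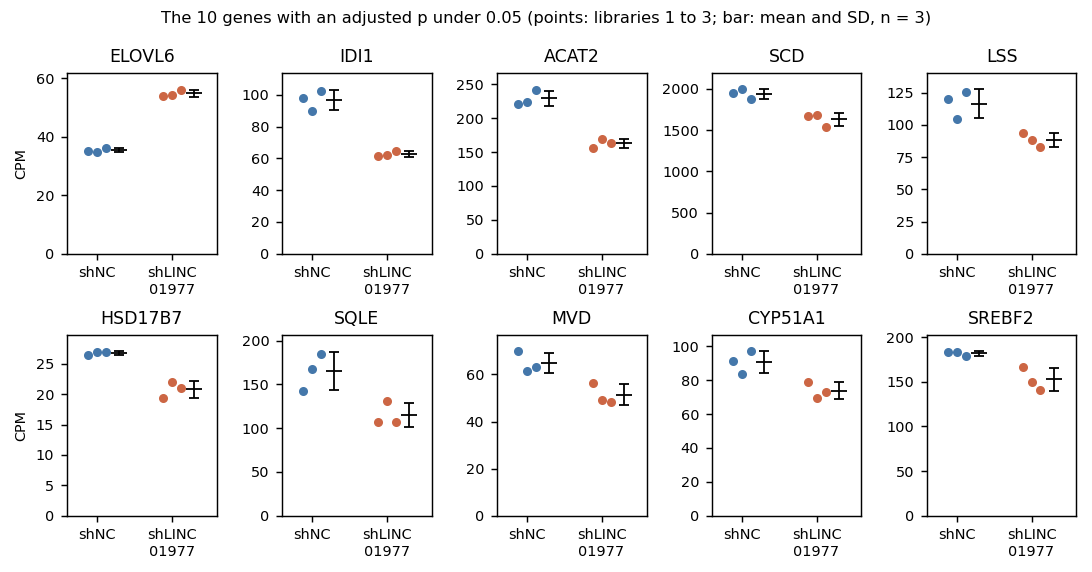
CPM in each library for the 10 genes with an adjusted p under 0.05 in edgeR (points, libraries 1 to 3 of each group; bars, mean and SD, n = 3; each axis starts at 0). ELOVL6 rises from 35.4 to 54.7 CPM on average, IDI1 falls from 96.7 to 62.8 CPM, and SCD lies near 1943 and 1630.5 CPM.

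Levels per length differed widely among the 33 genes. SCD was the most abundant, at 288 ± 8.95 FPKM in shNC and 252 ± 8.82 FPKM in shLINC01977 (SD, n = 3). FASN and ACLY followed at 60.4 ± 0.895 and 58.2 ± 2.58 FPKM in shNC, and their ranges overlapped. Of the sterol enzymes ACAT2 was the highest in shNC, at 42.3 ± 2.48 FPKM, and SC5D was the lowest of all 33, at 3.18 ± 0.144 FPKM. In shLINC01977 FDPS, at 40.9 ± 1.91 FPKM, was above ACAT2, at 31.4 ± 1.11 FPKM. SREBF2 stood at 19.1 ± 0.243 FPKM in shNC and SREBF1 at 5.59 ± 0.384 FPKM. ELOVL6 was next to the lowest at 3.84 ± 0.106 FPKM in shNC and reached 6.22 ± 0.204 FPKM in shLINC01977. The called genes were found at high and at low levels.

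**Figure D4:**
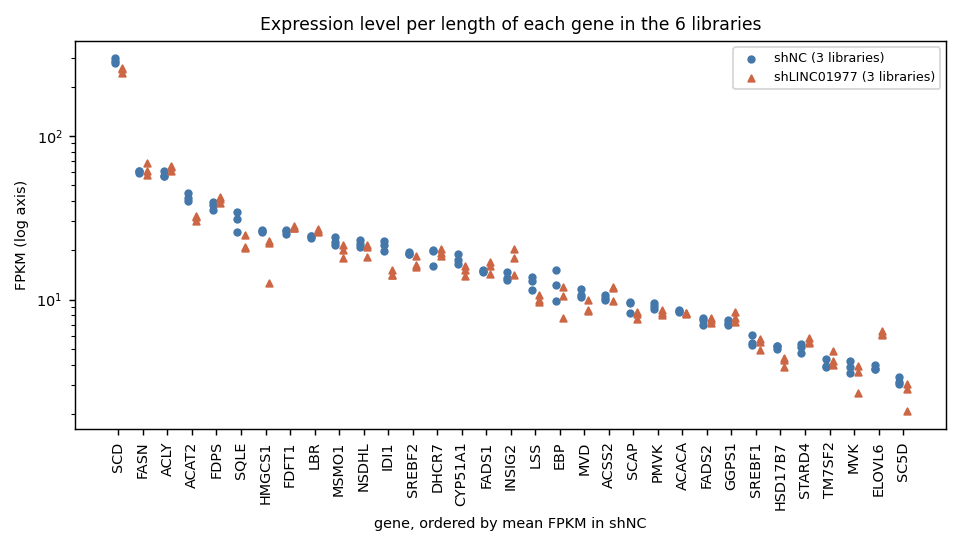
FPKM of each of the 33 genes in the 6 libraries on a log axis, ordered by the mean in shNC (circles, shNC; triangles, shLINC01977). The order runs from SCD at 288 FPKM to SC5D at 3.18 FPKM, and the low first shLINC01977 library of HMGCS1 stands apart from the other two.

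Further genes of the same biology, in lists that share no gene with the 34, were counted in the same fit, to be read against 8.07% lower and 7.05% higher over all tested genes. Of 11 genes for SREBP processing and sterol sensing, 2 were called higher and 1 lower, with a median log2 fold change of 0.17. ERLIN2, an endoplasmic reticulum protein of the SCAP and INSIG complex, had 58.4 ± 3.30 CPM in shNC and 72.9 ± 2.33 CPM in shLINC01977, a log2 fold change of 0.32 (adjusted p = 0.018). FAF2, an adaptor of degradation at the endoplasmic reticulum, had 0.18 (adjusted p = 0.036). C12orf49, which supports the protease that cleaves SREBPs, had -0.22 (adjusted p = 0.048). The calls of FAF2 and C12orf49 were lost when any 1 of the 6 libraries was left out, with adjusted p values between 0.078 and 0.10 and between 0.054 and 0.14. That of ERLIN2 was lost without shNC replicates 1 or 3 or shLINC01977 replicate 2, at 0.058, 0.051 and 0.063.

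Of 10 tested genes of the LXR axis, which responds to oxysterols, the median log2 fold change was 0.014 and 1 was called lower. This was RXRA, the partner receptor of LXR, with 81.2 ± 1.38 CPM in shNC and 58.4 ± 6.17 CPM in shLINC01977 (log2 fold change -0.48, adjusted p = 0.012). Of 12 tested genes for cholesterol trafficking and esterification, the median log2 fold change was 0.087 and 2 were called lower. NPC2, which hands cholesterol out of the lysosome, had a log2 fold change of -0.66 (adjusted p = 0.0084), and SCARB1, the receptor for high-density lipoprotein, had -0.34 (adjusted p = 0.0077). The 14 genes of the other isoprenoid branches had a median log2 fold change of -0.070. Of these, 1 was called lower, RABGGTB, a subunit of the enzyme that prenylates Rab proteins, with -0.22 (adjusted p = 0.026). Its call was kept only without shNC replicate 3 when 1 library was left out, with adjusted p values up to 0.084.

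Of 26 tested genes for further steps of fatty acid synthesis and activation, 3 were called lower and none higher, and the median log2 fold change was 0.032. ACSS1, the mitochondrial acetyl-CoA synthetase, had 135 ± 12.9 CPM in shNC and 62.3 ± 5.24 CPM in shLINC01977, a log2 fold change of -1.11 (adjusted p = 0.0013). Its cytosolic counterpart ACSS2 was not called. ELOVL2, an elongase of polyunsaturated chains, had 129 ± 13.1 CPM in shNC and 82.0 ± 4.65 CPM in shLINC01977 (log2 fold change -0.65, adjusted p = 0.0047), the opposite direction from ELOVL6. Other elongase genes were not called. ELOVL1, ELOVL3 and ELOVL5 had 0.17, 0.84 and 0.14, each with all shLINC01977 libraries above the shNC range. ELOVL7 had -0.19 with overlapping groups. MLXIPL, which encodes the carbohydrate-responsive transcription factor ChREBP, had 82.7 ± 8.66 CPM in shNC and 47.6 ± 9.10 CPM in shLINC01977 (log2 fold change -0.80, adjusted p = 0.017). Its adjusted p was 0.056 and 0.053 without shNC replicates 1 or 2, and 0.051 without shLINC01977 replicate 1. Of the 10 hepatocyte markers, 8 were called lower in the same comparison, against 8.07% of all tested genes. APOA2 was called higher and FGA was not called, and the part of these markers in the changes above was not tested.

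**Figure D5:**
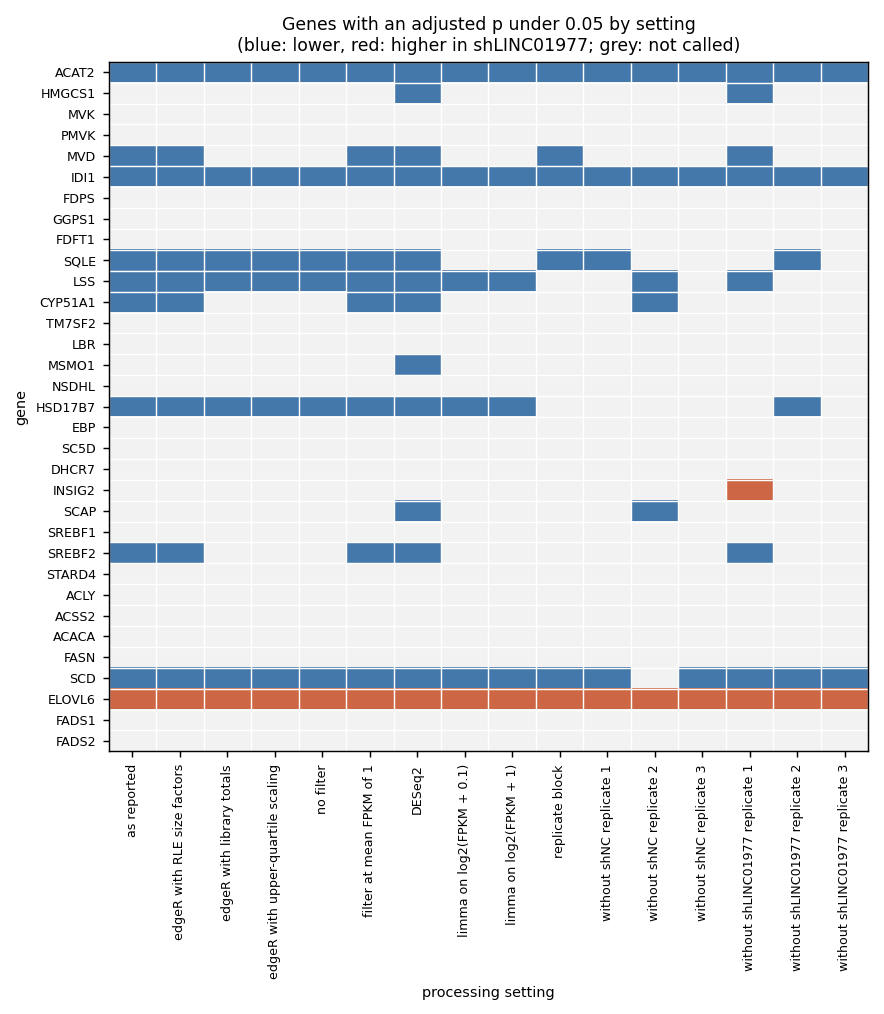
Calls of each of the 33 genes under the reported setting and the 15 alternatives (blue, lower in shLINC01977; red, higher; grey, adjusted p not under 0.05). ACAT2, IDI1 and ELOVL6 are coloured in each column, SCD in all but 1 of the alternatives, and MVD, CYP51A1 and SREBF2 in 5, 4 and 4 of the 15.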

How the data were processed

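TRIzol-extracted total RNA of HepG2 cells was sequenced by Illumina HiSeq, 3 libraries a group, grouped by their labels. The authors deposited 1 table on the hg38 build. Its counts are whole numbers per gene without normalization, and its FPKM values were scaled by the authors to transcript length and library total. The submitters' processing notes name bcl2fastq 2.0, HISAT2, StringTie, DESeq2 and limma. The annotation, the role of each tool and the use of strand are not given in the sources used here. Counts of 4 (8101 gene and library pairs) were more frequent than counts of 3 (2780) or 5 (1758), so counts may not be independent fragments. Coordinates are the table's, and 31 of the 33 genes have the same ones in GENCODE 29.

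Counts of the 13452 genes whose FPKM averaged 0.5 or more were tested with edgeR 4.0.16 (quasi-likelihood, TMM, no covariate, Benjamini-Hochberg over these genes) in R 4.3.3, after a check on simulated data. Alternatives were 3 other scalings, no filter or one at a mean FPKM of 1, DESeq2 1.42.0, limma 3.58.1 on log2(FPKM + 0.1) and log2(FPKM + 1), a replicate block, and leaving out each library. The genes and lists were chosen with earlier results of these data known. Values in every library are given for the called genes and for SREBF1, SREBF2, HMGCS1, SQLE, FASN and SCD, and genes of other lists are named where called. The library values of INSIG2, MVK, EBP, SC5D, FDFT1 and TCP1 were added after being seen. ELOVL1, ELOVL3, ELOVL5 and ELOVL7 are named without a call and were also added after being seen. Some other genes of the pathway are not reported here.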

Additional observations from a re-analysis of the deposited data

How the results depend on the processing

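Against 9 genes called lower, 6 were called lower with library totals, with upper-quartile scaling and with no filter, where 5.71%, 6.97% and 2.92% of all tested genes were called lower. The number was 12 with DESeq2 and 5 with limma at either pseudocount, where the shares were 11.0%, 5.42% and 5.46%. With 1 library left out, between 3 and 7 were called lower and between 1 and 2 higher, while the shares of all tested genes were between 4.66% and 5.49% lower and between 4.08% and 4.97% higher. Under library totals, upper-quartile scaling and limma at 0.1 and 1 the median of all tested genes was 0.065, 0.030, 0.063 and 0.049, and sign changes near 0 under these settings are of that size. Library totals moved the split of all calls from 1085 lower and 948 higher to 768 lower and 1455 higher. The median over the 33 genes, -0.19, was -0.12 with library totals, -0.12 with limma at a pseudocount of 0.1 and -0.11 at 1, and between -0.20 and -0.12 with 1 library left out. The causes were not tested. Samples with the same replicate number did not deviate together (correlations -0.032, 0.0044 and 0.063), and a fit with a replicate block called 5 genes lower and 1 higher, against 5.61% and 4.73% of all tested genes.

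Of 495 pairs of a gene and an alternative, 416 kept direction and side of the threshold, 50 kept direction only, 6 became called and 23 turned sign, none of these among the called genes. DHCR7 became 0.057 with library totals, 0.021 with upper-quartile scaling, 0.061 and 0.058 with limma at 0.1 and 1, and 0.046, 0.040, 0.013 and 0.0084 without shNC replicates 1 or 3 or shLINC01977 replicates 2 or 3 (range with 1 library left out, -0.11 to 0.046). FASN became 0.045, 0.0093, 0.040 and 0.039 under the same 4 settings, and 0.022 and 0.0084 without shLINC01977 replicates 2 or 3 (range -0.094 to 0.022). FADS2 became 0.0079 with library totals and 0.0066 and 0.0058 with limma. FADS1 became -0.0022 with no filter, and -0.0040, -0.048 and -0.0093 without shNC replicate 3 or shLINC01977 replicates 1 or 2 (range -0.048 to 0.087). FDFT1 became -0.0061 without shNC replicate 3 (range -0.0061 to 0.042) and TM7SF2 -0.037 without shLINC01977 replicate 3 (range -0.037 to 0.085).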
